A study of Mus musculus with 12 samples.

Results

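Potassium channel genes of the mouse striatum were described across 12 RNA-seq libraries, 6 labelled TAAR5-KO and 6 labelled TAAR5-WT. The genes were chosen by symbol and level: rows whose symbol begins with Kcn, then a family letter or letters and a number, apart from 6 symbols that the rule leaves out, with at least 0.5 CPM (counts scaled to a common library total, here all counts) in 3 or more libraries. Of 57132 features in the count table, 92 rows matched the symbol pattern and 70 of them also passed the level filter. The other 22 rows comprised 18 channel or auxiliary genes and 4 antisense transcripts. Just outside the filter lay Kcnk12 and Kcnh8, which reached it in 2 libraries, and just inside it lay Kcnj5, Kcnmb2, Kcnmb4 and Kcnu1, which reached it in 3.

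Potassium channels let K+ leave the cell, or in the case of inward rectifiers hold the membrane near the K+ equilibrium potential, and so set the resting potential, the shape of the action potential and the firing rate. In striatal medium spiny neurons (MSN), inward rectifiers of the Kir2 type keep the cell at a hyperpolarised down state, A-type Kv4 and slowly inactivating Kv1 currents delay the first spike, and KCNQ channels carry the M current that muscarinic receptors suppress. Dopamine and acetylcholine act on several of these currents, and fast-spiking interneurons rely on Kv3 channels for brief spikes.

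The mice were C57Bl/6 littermates of 10 months, both groups with males and females in equal number, and the knockout of the trace amine-associated receptor Taar5 was constitutive. The tissue was a slice of striatum from which the cortex had been cut away. Nothing ties a library to an animal or a sex, so each library, NK1 to NK6 labelled TAAR5-KO and NK7 to NK12 labelled TAAR5-WT, was taken as 1 replicate of its label. Taar5 itself was counted 1 to 6 times in the libraries labelled TAAR5-KO and 0 to 2 times in those labelled TAAR5-WT. This direction goes against the labels (exact permutation of the labels, two-sided, p = 0.0195, unadjusted). It rests on few raw counts, not scaled to library size, and its reason was not tested. Every direction below therefore follows the label and not a verified genotype.

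Total counts ran from 11269915 to 34824450 per library, but ribosomal RNA took 64.3% to 88.1% of them and 1819907 to 6399188 counts lay outside it. Levels are therefore given as CPM on library sizes scaled by TMM (trimmed mean of M values), on which 3 counts, the limit that a count of 0 allows, correspond to 0.0678 CPM in the deepest library and 0.361 CPM in the shallowest. TMM factors ran from 0.375 (NK1) to 2.46 (NK7) and overlapped between labels (exact permutation p = 0.364). Counts outside ribosomal RNA did not differ between labels beyond their spread (exact permutation p = 0.976). More features had a count under the TAAR5-WT label, 26071 ± 1481 against 23387 ± 1676 (SD, exact permutation p = 0.0238, unadjusted). Whether this number of features bears on the calls below was not tested. Among the 70 genes, 47 had 10 or more counts in every library and 3 (Kcnj5, Kcne2, Kcnk4) had a count of 0 in at least 1. The choroid plexus list of markers (Ttr and 5 others) was high in NK4 and NK11 stood lowest for both MSN lists, so both libraries were also left out together, as given below.

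The 70 genes divide by what they encode. Pore-forming subunits share the selectivity filter, a short run of threonine, glycine and tyrosine or phenylalanine residues that lines the K+ path, and 58 of the 58 pore-forming genes held an in-frame coding signature for it (a codon for threonine or serine, any codon, then codons for glycine, tyrosine or phenylalanine, and glycine) in their reference coding sequence. None of the 12 auxiliary genes did, which were Kcnab1 to Kcnab3, Kcne2, Kcne5, Kcnip1 to Kcnip4, Kcnmb1, Kcnmb2 and Kcnmb4. Over all tested features with a complete coding sequence, 386 of 12558 (3.07%) held the signature. The 2-pore K2P genes Kcnk3, Kcnk4, Kcnk10 and Kcnk13 held 2 signatures each, and the other 54 pore-forming genes held 1. Among those 54 are further K2P genes such as Kcnk1 and Kcnk2, so the number of signatures does not give the number of pores. The windows below are shown for the 3 genes that passed the test between labels and, under each, for the highest expressed other gene of its subfamily. They run 5′ to 3′ on the coding strand of GRCm39 over 45 bases, with the filter codons in capitals.
Kcnj2: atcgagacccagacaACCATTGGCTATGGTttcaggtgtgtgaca
Kcnj3: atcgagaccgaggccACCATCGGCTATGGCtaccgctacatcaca
Kcna4: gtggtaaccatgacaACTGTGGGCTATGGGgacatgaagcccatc
Kcna1: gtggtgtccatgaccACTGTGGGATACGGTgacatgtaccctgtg
Kcnt1: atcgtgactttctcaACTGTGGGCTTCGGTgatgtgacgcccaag
Kcnt2: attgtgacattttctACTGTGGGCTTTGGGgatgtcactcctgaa

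All of these windows are coding exon sequence. The Kcnj2 window is chr11:110963018-110963062 (plus strand, exon 2) and the Kcnj3 window chr2:55327624-55327668 (plus strand, exon 1). The Kcna4 window is chr2:107126825-107126869 (plus strand, exon 2) and the Kcna1 window chr6:126619176-126619220 (minus strand, exon 2). The Kcnt1 window is chr2:25784364-25784408 (plus strand, exon 10) and the Kcnt2 window chr1:140353001-140353045 (plus strand, exon 9). Within a pair, 33 of 45 bases were identical for Kcnj2 and Kcnj3, 34 for Kcna4 and Kcna1 and 34 for Kcnt1 and Kcnt2. Across pairs the number was 30 for Kcna4 and Kcnt1, 24 for Kcnj2 and Kcna4 and 21 for Kcnj2 and Kcnt1. In these windows Kcnt1 and Kcnt2 read glycine, phenylalanine, glycine, and Kcnj2, Kcnj3, Kcna4 and Kcna1 read glycine, tyrosine, glycine.

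Levels between genes were compared per length, as CPM per kb of merged exons, averaged over the 12 libraries. Kcnd2, the Kv4 subunit of the A current, was the highest at 4.102, and the Kv1 gene Kcna1, its relative Kcna2 and the beta subunit Kcnab2 followed at 3.54, 3.40 and 3.40. Next came Kcnj3, a subunit of the G protein-gated inward rectifiers (GIRK), at 3.33 and Kcnq3, a subunit of the M channel, at 3.21. In this order the neighbours below Kcnd2 did not differ beyond their spread, since the libraries labelled TAAR5-KO alone gave 3.43 ± 0.676 for Kcna2 and 3.56 ± 1.14 for Kcnj3 (SD, n = 6). Of the 70 genes, 30 had a level per length of 1 or more and 15 were under 0.2.

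**Figure D1:**
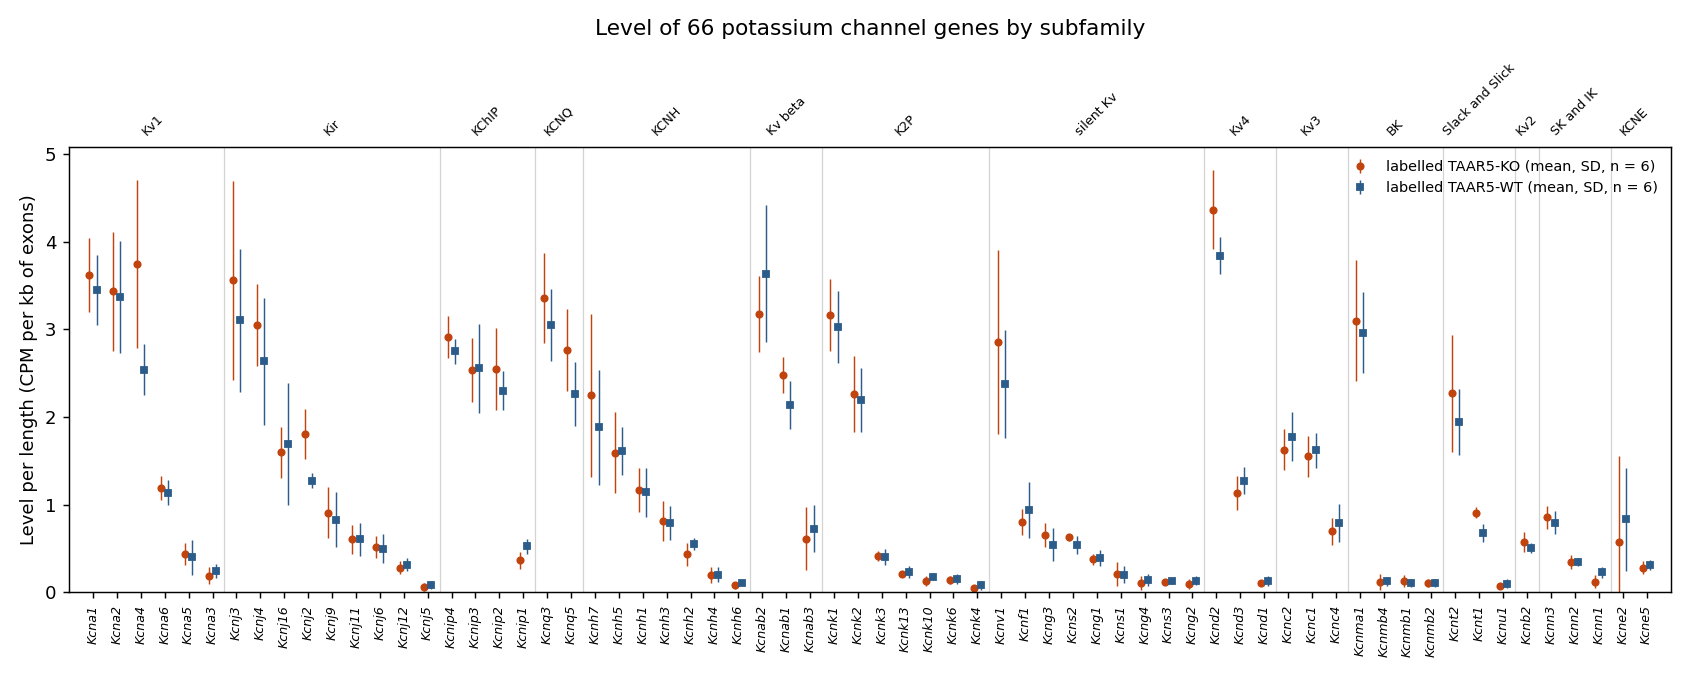
Level per length (CPM per kb of merged exons, vertical axis) of 66 of the 70 genes (horizontal axis), grouped by subfamily, as mean and SD of the 6 libraries of each label. Within most subfamilies a few genes carry the level, as Kcnma1 at 3.03 against 0.107 to 0.122 for the 3 BK beta subunits.

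The Kv1 and Kir subfamilies had the largest summed levels per length, 11.9 over 6 genes and 11.7 over 9 genes. Among the Kv1 genes Kcna1, Kcna2 and Kcna4 (3.14) held most of the level, whereas Kcna3 stood at 0.218. Among the inward rectifiers, Kcnj3 (3.33) and the Kir2 gene Kcnj4 (2.84) led, followed by Kcnj16 (1.64), which is known from glia and kidney, and Kcnj2 (1.54). The GIRK subunits Kcnj9 and Kcnj6 stood at 0.870 and 0.507 and Kcnj5 at 0.0726. Among the KChIP genes, calcium sensors that bind Kv4 channels, Kcnip4, Kcnip3 and Kcnip2 lay close together at 2.83, 2.54 and 2.43, with Kcnip1 at 0.444.

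Elsewhere single genes stood out. Kcnma1, the pore of the BK channel opened by calcium and voltage, was at 3.03, and its neuronal beta subunit Kcnmb4 at 0.122. Of the M channel genes, Kcnq3 was at 3.21 and Kcnq5 at 2.51. The leak channels were led by Kcnk1 (3.09) and Kcnk2 (2.23). Kcnv1, a silent subunit that forms channels only together with Kv2, was at 2.61, above the other 8 silent genes. The KCNH genes ran from 2.06 (Kcnh7) to 0.0953 (Kcnh6), and Kcnh4, described as a striatal member of this family, was at 0.202. The small-conductance calcium-activated genes were led by Kcnn3 (0.823), and the Kv3 genes by Kcnc2 (1.70) and Kcnc1 (1.59). Kcnt2 (2.11) and Kcnt1 (0.792), the sodium-activated channels Slick and Slack, were grouped with Kcnu1 (0.0850), a relative known from sperm.

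The comparison between labels asks which of these genes differ in striatum when Taar5 is knocked out. By the likelihood ratio test of edgeR with Benjamini-Hochberg adjustment over all 13902 features tested, 3 of the 70 genes (4.29%) were called at an adjusted p under 0.1, against 1.65% of all features. All 3, Kcnj2, Kcna4 and Kcnt1, were higher in the libraries labelled TAAR5-KO, where 0.957% of all features were called higher. None was called lower (all features 0.691%). Among the 33 genes with a fold change below 0, 3 had an unadjusted p under 0.05, and neither the quasi-likelihood test of edgeR nor DESeq2 called any, although DESeq2 gave no adjusted p for 22 of them. The quasi-likelihood test called 1 gene, Kcnj2 (all features 0.453%). In all, 9 genes (12.9%) had an unadjusted p under 0.05, near the 11.9% of all features.

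For the whole set the fold changes were small. The median log2 fold change, TAAR5-KO label over TAAR5-WT label, was 0.013 over the 70 genes with quartiles of -0.20 and 0.13, and -0.0059 over all features tested. It was above 0 for 37 genes (52.9%), against 48.9% of all features, and 49 genes lay within 0.25 of 0. Without NK4 and NK11 the same 3 genes were called, at adjusted p of 0.0692 (Kcnj2), 0.0528 (Kcna4) and 0.0977 (Kcnt1) in edgeR. Without NK11 alone the calls of Kcna4 (adjusted p = 0.123, edgeR) and Kcnt1 (0.154) were lost.

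**Figure D2:**
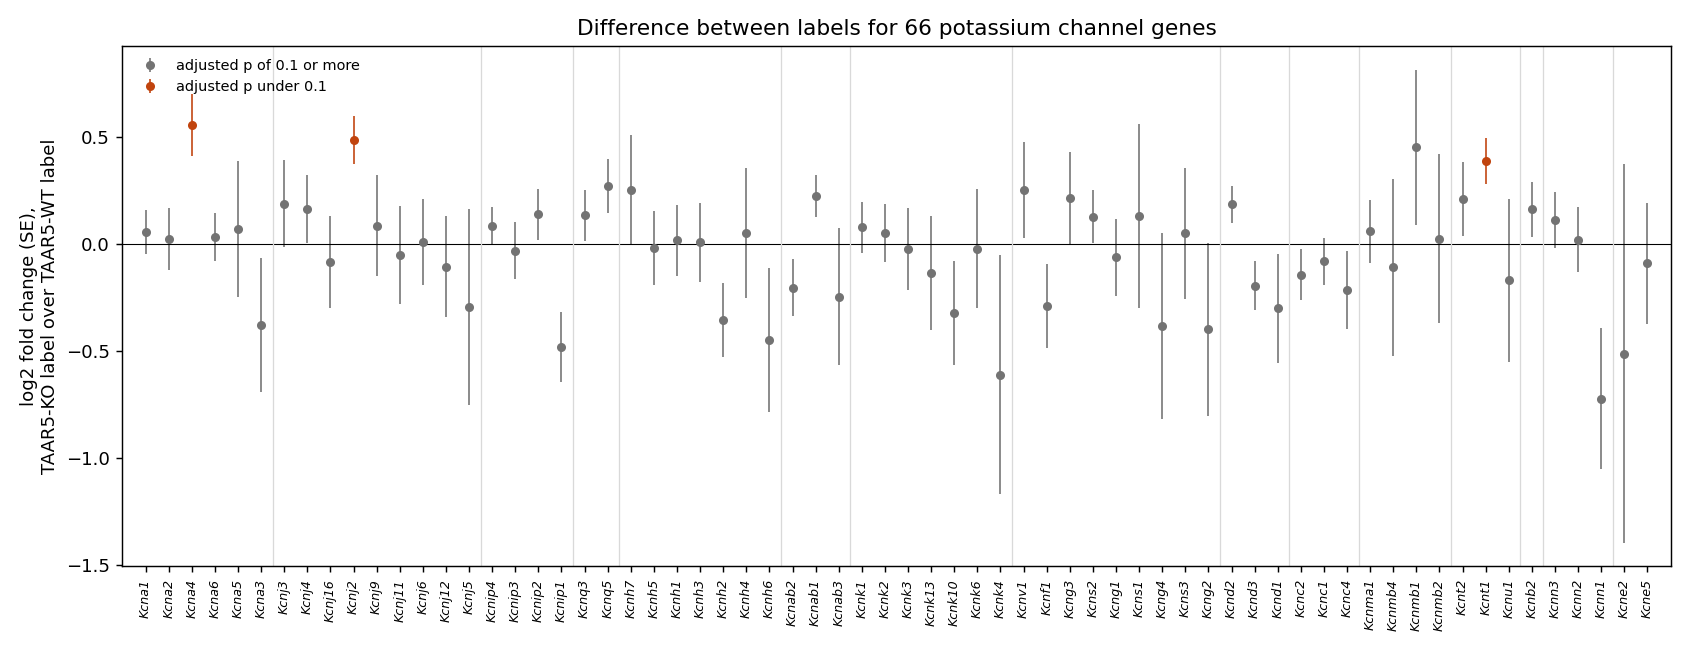
Log2 fold change (points) with its standard error (bars) for 66 of the 70 genes, ordered by subfamily, with called genes in orange. The 3 called genes lie at 0.39 to 0.55, and the other 63 include larger values with wide errors such as Kcnn1 at -0.72.

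Kcnj2 (ENSMUSG00000041695.3, protein coding, chr11:110956990-110967647 of GRCm39) encodes a strong inward rectifier that sets the down state of spiny neurons. The libraries labelled TAAR5-KO had 12.1, 8.90, 10.7, 10.3, 7.68 and 9.31 CPM (NK1 to NK6), and those labelled TAAR5-WT had 7.24, 6.68, 7.44, 6.62, 6.28 and 7.39 CPM (NK7 to NK12). The 2 labels did not overlap, which held for 1.01% of all features and, in this direction, for 0.626%. Mean levels were 9.83 ± 1.54 and 6.94 ± 0.478 CPM (SD, n = 6 each). The log2 fold change was 0.48 (SE 0.11), with an adjusted p of 0.00746 in the likelihood ratio test and 0.0636 in the quasi-likelihood test. The call was kept when any 1 library was left out and in 13 of 15 alternatives.

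None of the other 8 inward rectifier genes was called. Kcnj4, the other Kir2 gene at a high level, had a median of 6.46 CPM (5.45 to 8.18) under the TAAR5-KO label and 5.52 CPM (4.16 to 7.85) under the TAAR5-WT label, a log2 fold change of 0.16 (SE 0.16). For Kcnj12, the third Kir2 gene, the value was -0.11 (SE 0.24). The GIRK genes Kcnj3, Kcnj9, Kcnj6 and Kcnj5 had 0.19, 0.08, 0.01 and -0.29, and Kcnj11, the pore of the ATP-sensitive channel, had -0.05. Kcnj16 ends 38196 bases before the start of Kcnj2 on chromosome 11 and had -0.09 (SE 0.22), with 4.53 to 7.76 CPM under one label and 2.53 to 9.95 CPM under the other. The ratio of Kcnj2 to Kcnj3 overlapped between labels, at 0.381 to 0.947 and 0.270 to 0.632.

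Kcna4 (ENSMUSG00000042604.6, protein coding, chr2:107120984-107128847) encodes the inactivating Kv1 subunit, which gives an A-type current in axons. Levels under the TAAR5-KO label were 24.6, 19.0, 22.4, 14.6, 14.2 and 13.8 CPM (NK1 to NK6), and under the TAAR5-WT label 13.9, 12.99, 13.6, 11.7, 10.5 and 11.03 CPM (NK7 to NK12). The 3 highest libraries were NK1, NK2 and NK3, and the labels overlapped by 1 pair, NK6 below NK7. Means were 18.1 ± 4.64 and 12.3 ± 1.39 CPM, with a log2 fold change of 0.55 (SE 0.14) and an adjusted p of 0.0255, against 0.127 in the quasi-likelihood test. NK1, NK2 and NK3 also had the highest ribosomal RNA shares of their label, 86.6% to 88.1%, and its lowest TMM factors, 0.375 to 0.534. NK9 and NK10, labelled TAAR5-WT, had shares of 87.4% and 85.6%, TMM factors of 0.493 and 0.655, and 13.6 and 11.7 CPM of Kcna4. With the ribosomal RNA share as a covariate the log2 fold change was 0.45 and the call was lost (adjusted p = 0.180, edgeR). The part of these library traits in the Kcna4 values was not tested further. The call was also lost without NK1 (adjusted p = 0.118), without NK3 (0.103) or without NK11 (0.123) in the same edgeR test.

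The other Kv1 genes had log2 fold changes of 0.05 (Kcna1), 0.02 (Kcna2), 0.03 (Kcna6), 0.07 (Kcna5) and -0.38 (Kcna3), none called. Kcna1, which sets the threshold of axons, had a median of 17.4 CPM (14.7 to 20.3) under the TAAR5-KO label and 16.2 CPM (14.7 to 20.2) under the TAAR5-WT label, with near-complete overlap. Of the beta subunits that dock to Kv1 channels, Kcnab1 had 27.7 ± 2.27 against 23.9 ± 3.00 CPM, a log2 fold change of 0.22 (SE 0.10, edgeR adjusted p = 0.324). Kcnab2 had -0.21 (SE 0.13) and Kcnab3 had -0.25 (SE 0.32). The ratio of Kcna4 to Kcna1 was 0.734 to 1.39 under the TAAR5-KO label and 0.541 to 0.915 under the TAAR5-WT label.

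Kcnt1 (ENSMUSG00000058740.15, protein coding, chr2:25753746-25808285) encodes Slack, opened by intracellular sodium. It had 9.11, 8.82, 9.48, 7.81, 8.31 and 8.24 CPM in NK1 to NK6 and 7.02, 7.01, 6.78, 5.06, 5.355 and 7.25 CPM in NK7 to NK12. Again the labels did not overlap, and the narrowest gap lay between NK4 and NK12. With means of 8.63 ± 0.622 and 6.41 ± 0.952 CPM, the log2 fold change was 0.39 (SE 0.11), with an adjusted p of 0.0391 in the likelihood ratio test and 0.117 in the quasi-likelihood test. The call was lost without NK1 (adjusted p = 0.102, edgeR) or NK11 (0.154). Kcnt2, the partner with which Slack can assemble, had a median of 15.4 CPM (10.2 to 21.3) and 13.1 CPM (10.2 to 17.1), a log2 fold change of 0.21 (SE 0.17), and the ratio of Kcnt1 to Kcnt2 overlapped between labels.

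**Figure D3:**
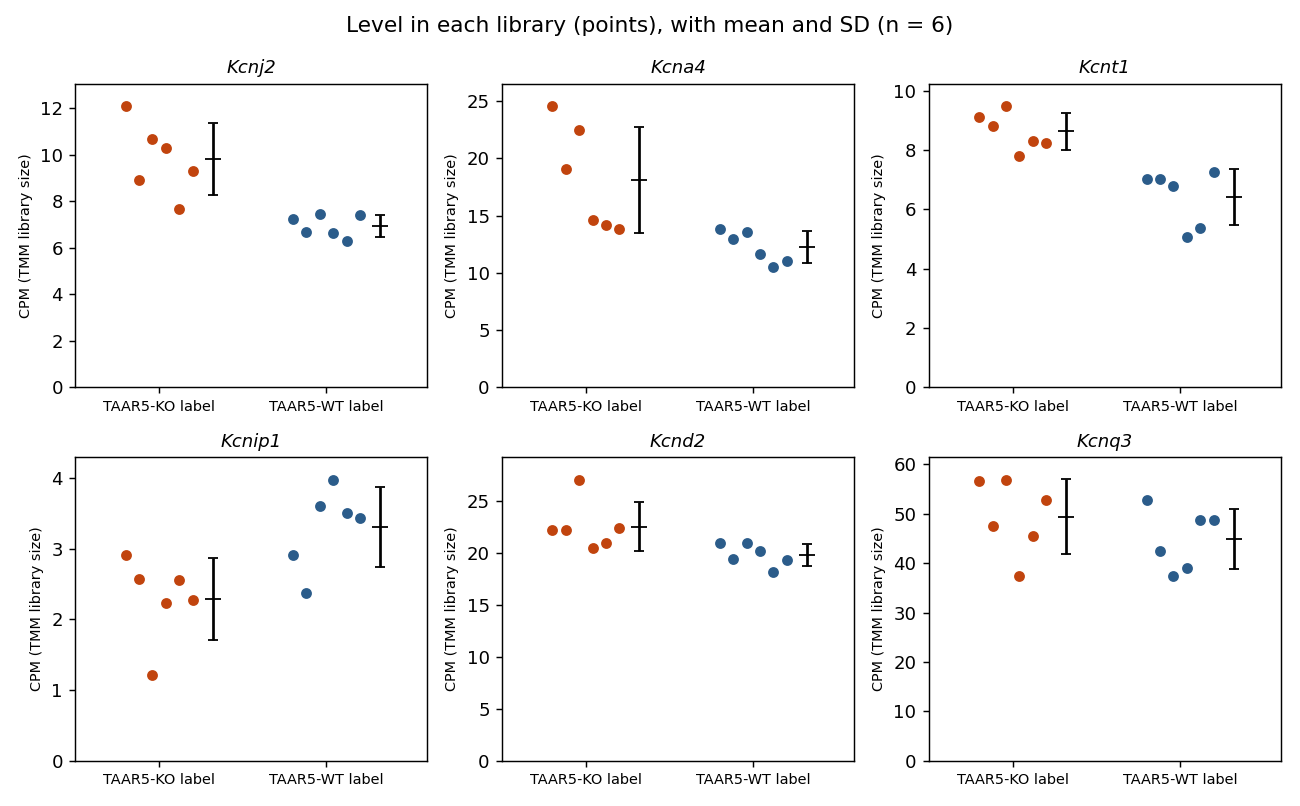
Level in CPM on TMM library size (vertical axis) in each library, by label, for Kcnj2, Kcna4, Kcnt1, Kcnip1, Kcnd2 and Kcnq3, with the mean and SD beside the points. Kcnj2 and Kcnt1 do not overlap between labels, Kcna4 overlaps by 1 pair, and the uncalled Kcnip1, Kcnd2 and Kcnq3 overlap.

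Kv4 channels and their partners gave values in both directions without a call. Kcnd2, the highest gene per length, had a median of 22.1 CPM (20.4 to 27.0) against 19.7 CPM (18.1 to 20.9), a log2 fold change of 0.18 (SE 0.09, edgeR adjusted p = 0.361). Kcnd3, another Kv4 subunit, had -0.20 (SE 0.12). Kcnip1, a KChIP of interneurons, had the smallest p of the genes with lower values, at 2.91, 2.58, 1.22, 2.23, 2.56 and 2.27 CPM in NK1 to NK6 and 2.92, 2.38, 3.61, 3.97, 3.51 and 3.44 CPM in NK7 to NK12. Of the libraries labelled TAAR5-WT, NK8 lay within the range of the other label and NK7 just above it. Its log2 fold change was -0.48 (SE 0.17) with an adjusted p of 0.139 (edgeR likelihood ratio test), which passed the threshold only when NK8 was left out among the 12 such fits. Kcnip2, the KChIP partner of Kcnd2 in many tissues, had 0.14 (SE 0.12), Kcnip4 0.08 (SE 0.09) and Kcnip3 -0.03 (SE 0.13).

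The Kv3 genes Kcnc1, Kcnc2 and Kcnc4, subunits of fast spiking, had values of -0.08, -0.14 and -0.22, and none was called, with the smallest unadjusted p at 0.219. Levels of the interneuron list (Pvalb, Sst and 7 others) were 38.5 ± 2.64 and 40.9 ± 2.32 summed CPM under the TAAR5-KO and TAAR5-WT labels (exact permutation p = 0.134). The Kv2 gene Kcnb2, a delayed rectifier, had 0.16 (SE 0.13). Of the 9 silent subunits, 5 were above 0 and 4 below, from 0.25 (Kcnv1) to -0.40 (Kcng2).

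The M channel genes Kcnq5 and Kcnq3 had 0.27 (SE 0.13, edgeR adjusted p = 0.360) and 0.13 (SE 0.12). Kcnh2, a channel of the ERG type that opens on repolarisation, had 2.09 ± 0.657 against 2.68 ± 0.333 CPM, a log2 fold change of -0.36 (SE 0.17, edgeR adjusted p = 0.384). Without NK4 the value was -0.50 and Kcnh2 was called (adjusted p = 0.0619, edgeR). Its relative Kcnh7 had 0.25 (SE 0.26) and Kcnh4 0.05 (SE 0.31).

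Among calcium-activated channels Kcnma1 had a median of 57.0 CPM (35.8 to 66.6) against 50.6 CPM (40.4 to 59.7), a log2 fold change of 0.06 (SE 0.15). Kcnn1 had the largest fold change of the 70 genes, -0.72 (SE 0.33, edgeR adjusted p = 0.324), at 0.248 to 1.12 CPM against 0.648 to 1.36 CPM, and thus rested on few reads, 4 to 60 counts per library. Without NK6 its value was -1.10 and it was called (adjusted p = 0.0691, edgeR). Kcnn2 and Kcnn3, the other small-conductance genes, had 0.02 and 0.11. Leak channels ran from 0.08 (Kcnk1) to -0.61 (Kcnk4, SE 0.56), and Kcnk2, a channel gated by stretch and lipids, had 0.05 (SE 0.13).

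Genes outside the Kcn symbols whose products bind, cluster or tune these channels were read from a list of 34 (among them Dpp6 and Dpp10, calmodulins and scaffold genes), of which 33 were tested and Lrrc52 was not. No gene of the list was called by the likelihood ratio test, the quasi-likelihood test or DESeq2, although DESeq2 gave no adjusted p for 2 of them. An unadjusted p under 0.05 was reached by 6 of the 33 (11.9% of all features), 4 of them higher under the TAAR5-KO label. Fold changes were above 0 for 17 and below 0 for 16, with a median of 0.0042 beside -0.0059 over all features. The smallest p was for Hpcal1, a neuronal calcium sensor, at -0.42 (SE 0.17, edgeR adjusted p = 0.249). Akap5, an anchor of kinase and phosphatase near channels, had 0.30 (SE 0.12), Cntn2, an axonal adhesion protein beside Kv1 clusters, had -0.26 (SE 0.11), and Calm2, a calmodulin gene, had 0.26 (SE 0.11).

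In bulk tissue, fewer cells of a type and less RNA per cell cannot be told apart, so marker lists were read beside these genes. The D2 MSN list (Drd2, Adora2a, Penk and 4 others) was at 101 to 124 summed CPM under the TAAR5-KO label and 64.4 to 110.5 under the TAAR5-WT label, with means of 115.6 ± 9.51 and 99.7 ± 17.8 (exact permutation p = 0.0411, 0.186 adjusted over 10 lists). The D1 MSN list had 46.8 ± 5.94 and 39.5 ± 6.63 (exact p = 0.0606, adjusted 0.186). The lowest library for both was NK11. In each of these MSN lists 5 of 7 markers had a fold change above 0, and none was called. The oligodendrocyte precursor list was lower under the TAAR5-KO label, 20.1 ± 2.07 against 23.4 ± 1.17 (exact p = 0.00433, adjusted 0.0433). It holds Olig1, which the paper already lists as lower in these mice, so its p is not independent of that result. Of its 5 markers, 1 was called lower and 1 had a fold change above 0. The astrocyte list had 1167 ± 77.5 against 1249 ± 70.0 (exact p = 0.0931, adjusted 0.186), with 1 of 8 markers called lower and 0 above 0. None of the markers was at 0 in every library. When the level of the D2 MSN list was added to the fit, an alternative chosen after the data were seen, the log2 fold changes were 0.42 for Kcnj2, 0.43 for Kcna4 and 0.30 for Kcnt1, and none of the 70 genes was called (adjusted p of 0.202, 0.378 and 0.398 in edgeR), with 8 at an unadjusted p under 0.05. Over all features that fit called 0.288%, against 1.65% without the list. The list itself leaned with the label, so this fit cannot separate cell composition from the label. The part of cell composition in these differences was not tested.

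Across libraries, and apart from the labels, a block of channel genes followed the cortical pyramidal neuron list (Slc17a7, Neurod6, Tbr1 and 5 others). The list ran from 36.2 to 117.7 summed CPM under the TAAR5-KO label and from 44.1 to 129.7 under the TAAR5-WT label, without a difference between labels beyond the spread (exact permutation p = 0.877). In NK4, NK5, NK8, NK9 and NK10 it was at 36.2 to 67.6, and the choroid plexus list at 197 to 494. In NK2, NK3, NK6 and NK12 it was at 103 to 129.7, and the choroid plexus list at 4.21 to 9.26. NK7 lay between in both lists, while NK1 (68.0 and 4.52) and NK11 (114 and 165) departed from this opposition. Which of the 2 lists the block follows was not tested. Correlations of log2 level over the 12 libraries were computed for all 70 genes, with 100000 permutations and Benjamini-Hochberg adjustment, and both measures share the scaling of the library. Of the 70 genes, 20 had an adjusted p under 0.05 for Pearson's r, and all 20 were positive. The lowest r among them was 0.71, which 28.6% of the 70 genes and 5.92% of all 13902 features reached. At or below the same value with a negative sign lay none of the 70 genes and 2.02% of all features. Within each label, 10 of them had r over 0.8 as well. Without NK4 and NK9, the 2 libraries farthest from the median of the list, r of the 20 genes ran from 0.35 to 0.95, and it was lowest for Kcnh1 (0.52), Kcnq3 (0.52), Kcna6 (0.54) and Kcnc4 (0.35), which thus rest in part on those libraries.

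The strongest was Kcnma1, with r = 0.94 (permutation p = 3e-05, adjusted 0.00175) and rho = 0.91 (p = 1e-04, adjusted 0.00227). Without NK4 and NK9 its r was 0.89, and within the labels it was 0.94 and 0.99. Kcnj9 and Kcnj3, which form GIRK channels in forebrain neurons, had r = 0.93 and 0.92 (rho 0.91 and 0.89, permutation p of 8e-05 and 0.00015, adjusted 0.00175 for both), and their r was 0.95 and 0.85 without NK4 and NK9. Kcnj6, the third GIRK gene, had r = 0.86 (rho 0.85, permutation p = 0.00053, adjusted 0.00464). Kcnh7, Kcna2, Kcnv1 and Kcnt2 had r of 0.91, 0.91, 0.91 and 0.88 (adjusted permutation p of 0.00175, 0.00175, 0.00175 and 0.00280), with rho of 0.92, 0.85, 0.90 and 0.92. Kcnh7 thus ranged from 15.7 CPM in NK4 to 49.8 CPM in NK6, and Kcnj3 from 10.4 CPM in NK4 to 24.2 CPM in NK3.

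The 3 genes called between labels were not in this block. Kcnj2 had r = -0.02 (rho -0.03, permutation p = 0.939, adjusted 0.952), Kcna4 r = 0.03 (rho -0.15, p = 0.916, adjusted 0.952) and Kcnt1 r = 0.11 (rho 0.24, p = 0.723, adjusted 0.857). Without NK4 and NK9 their r was 0.14, -0.01 and 0.14. Kcnd2 and Kcnip2, known for high levels in spiny neurons, had r = 0.18 and 0.08 (rho 0.11 and 0.19, permutation p of 0.607 and 0.80, adjusted 0.766 and 0.903). When the cortical list level was added to the fit, again an alternative chosen after the data were seen, 8 of the 70 genes were called, against 4.83% of all features. They were Kcnj2, Kcna4 and Kcnt1 with Kcnq5, Kcnt2 and Kcnv1 as higher, at log2 fold changes of 0.49, 0.55, 0.40, 0.30, 0.26 and 0.30. Kcnip1 and Kcne2 were called lower, at -0.50 and -2.09. The adjusted p in edgeR ran from 0.00223 for Kcnj2 to 0.0697 for Kcnt2. Kcne2 had 0 to 71 counts per library, varied with the choroid plexus list as given below, and had -0.51 without the covariate (edgeR adjusted p = 0.880).

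**Figure D4:**
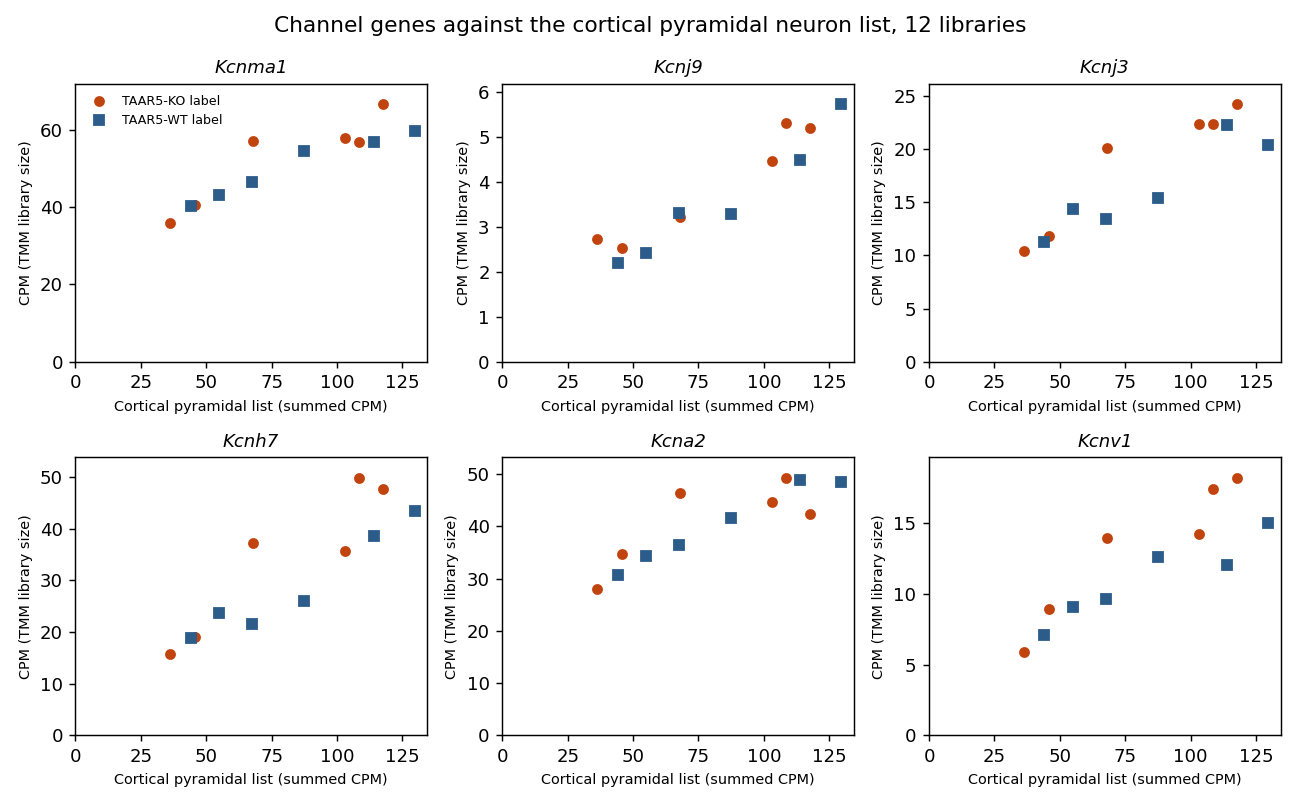
Level of Kcnma1, Kcnj9, Kcnj3, Kcnh7, Kcna2 and Kcnv1 (CPM on TMM library size, vertical axes) against the summed level of the cortical pyramidal neuron list (CPM, horizontal axes) in 12 libraries, by label. In each panel the libraries of both labels lie along 1 rising band, with r from 0.91 to 0.94.

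Kcne2, an auxiliary subunit known from choroid plexus epithelium, was the most variable of the 70 genes. It had 0 to 0.162 CPM in NK1, NK2, NK3, NK6 and NK12, where the choroid plexus list was at 4.21 to 9.26 summed CPM. In the other 7 libraries it had 0.432 to 4.40 CPM, and the list was at 118.6 to 494. The highest library for both was NK4, with 4.40 CPM of Kcne2. Since the libraries fall into 2 clusters, no correlation is given. The mean of the list did not differ between labels beyond its spread (exact permutation p = 0.574), but NK4 weighs heavily in that mean. Its medians were 7.13 summed CPM under the TAAR5-KO label and 188 under the TAAR5-WT label. Of the low libraries, NK1, NK2, NK3 and NK6 carry the TAAR5-KO label and NK12 the other, so the list was not evenly spread over the labels. Between labels Kcne2 had a log2 fold change of -0.51 (SE 0.88, edgeR adjusted p = 0.880), which was -2.01 without NK4 (adjusted p = 0.208). By contrast Kcnip4 varied least, with an SD of 0.0991 on the log2 scale within labels, against a median of 0.335 over the 70 genes and 1.93 for Kcne2.

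The fold changes of the 70 genes followed the GC content of their exons, as those of all features did. Across genes, which are not independent replicates, Pearson's r was -0.46 and Spearman's rho -0.48 over the 70 genes, and -0.34 and -0.40 over all 13902 features. Of the 35 genes below the median GC content of 52.0%, 24 had a fold change above 0 (median 0.05), and of the 35 above it, 13 did (median -0.08). For all features split at the same value the medians were 0.04 and -0.10. Kcnj2 (41.2% GC) and Kcna4 (44.96%) lay in the GC-poor group and Kcnt1 (55.8%) in the GC-rich group. After each library's trend on GC content was removed, the same 3 genes were called, with log2 fold changes of 0.38, 0.52 and 0.50 and adjusted p of 0.0901, 0.0546 and 0.00480 (edgeR).

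**Figure D5:**
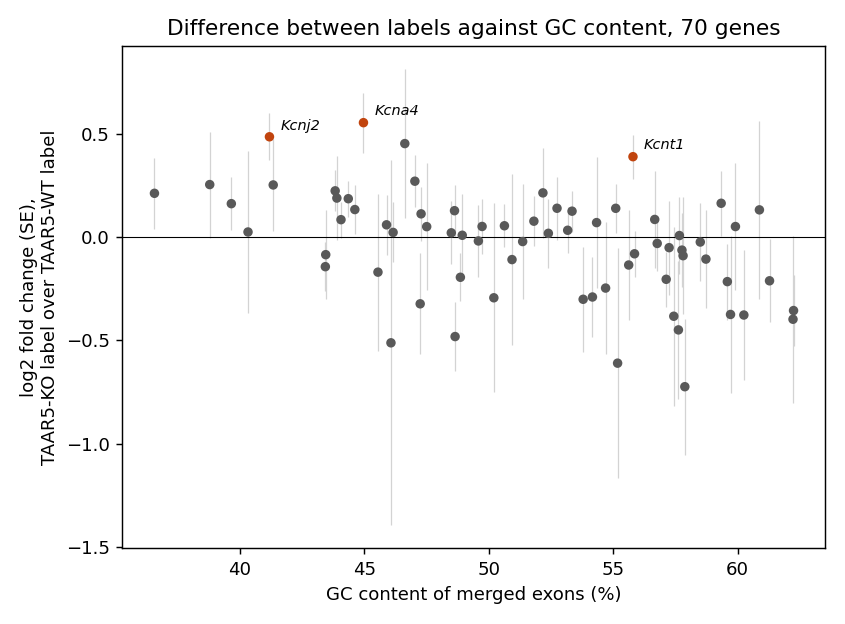
Log2 fold change with its standard error (vertical axis) against the GC content of the merged exons in percent (horizontal axis) for the 70 genes, with called genes in orange. Values fall from left to right (r = -0.46), and Kcnt1 stands above the other genes near 55.8% GC.

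Several of the genes lie near each other. Kcna1, Kcna5 and Kcna6 share a stretch of chromosome 6, with Kcna6 61945 bases from Kcna1, and had 0.05, 0.07 and 0.03. Kcna2 and Kcna3 lie 63076 bases apart on chromosome 3 and had 0.02 and -0.38. Kcnmb1 lies wholly within the span of Kcnip1 on chromosome 11, on the opposite strand and without shared exon bases, and had 0.45 (SE 0.36) against -0.48. The strand setting of the counting is not given in the sources used here, so reads from a gene and an antisense neighbour cannot be told apart. Such an overlap was largest for Kcna6, where the noncoding Gm26673 covers 39.6% of the exon bases, whereas the exons of Kcnj2, Kcna4 and Kcnt1 overlap no other annotated gene.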

How the data were processed

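Total RNA of mouse striatum was depleted of ribosomal RNA and sequenced single-end with 100-base reads from directional libraries. Per the submitters' notes, FastQC, cutadapt 4.1, STAR 2.7.11b and featureCounts 2.0.6 were used, with GRCm39 and GENCODE M35. The authors deposited raw counts per gene, neither normalized nor pooled. A further 12 per-library columns were not used here. The columns carry numbers found in no label, so p-values measure the spread between libraries.

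From these counts, features that reached 0.5 CPM in 3 libraries or more were kept, TMM factors were computed, and labels were compared with glmFit and glmLRT of edgeR 4.0.16 (R 4.3.3) without covariates, with Benjamini-Hochberg adjustment over all features. The test, its threshold and the CPM minimum follow the study's methods, which name no TMM scaling. The minimum was applied to CPM on total counts, which kept 13902 features. As an alternative it was applied on TMM library sizes, which kept 13053, the number of features that the paper reports after its filter. The main fit called 229 features at the threshold, more than the paper reports. A measure with a single value in each library was tested by enumerating every assignment of the libraries to labels. Correlations used log2 CPM with a prior count of 2. Exon GC content, overlaps and coding sequences came from GRCm39 with GENCODE M39, which postdates the authors' release. Each coding sequence was read from 1 canonical transcript per gene.

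Of the 70 genes, 4 enter the fits and counts but are not reported here. Members, lists and named genes were chosen with earlier results of these data known. Named were called genes, the 5 of smallest p in each direction, genes without overlap between labels, the highest of each subfamily, a fixed list of striatal channels, and genes with 1 library far from its group. Others, such as low members, correlated genes and neighbours, were named after their values were seen. Alternatives were the quasi-likelihood test, DESeq2 1.42.0, other scalings and filters, a stricter threshold, the ribosomal RNA share as a covariate, removal of ribosomal RNA features and of length or GC trends (loess, span 0.5), and leaving out each library. Added after seeing the data were the cortical and D2 MSN list levels as covariates and NK4 and NK11 left out together. The tests were also run on counts simulated from the spread that the fit estimated for each gene. Those counts hold no effect of library quality, GC content or cell composition, so that run does not show how many calls here are false.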

Additional observations from a re-analysis of the deposited data

Results flagged for a closer look

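In 152 groups of 6 libraries (66 genes under 2 labels and 10 marker lists under 2 labels), 16 had 1 library whose gap to its nearest neighbour exceeded Dixon's critical value for its share of the range. Chance flags about 1 group in 20. Of these, 13 of 132 groups concerned channel genes. NK3 was far above its group for Kcnh3 (7.21 CPM), Kcnh6 (0.567 CPM), Kcnd1 (0.810 CPM) and Kcnd2 (27.0 CPM). NK12 was far above for Kcnh3 (6.71 CPM), Kcnip2 (10.1 CPM) and Kcna1 (20.2 CPM). NK9 was far below for Kcnc4 (1.42 CPM) and Kcnd1 (0.109 CPM). The others were NK4 high for Kcne2 (4.40 CPM), NK7 high for Kcne5 (0.648 CPM), NK5 low for Kcnf1 (2.52 CPM) and NK1 high for Kcng3 (3.14 CPM).

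Among the marker lists, NK11 was far below its group for the D1 MSN list (26.5 summed CPM) and the D2 MSN list (64.4 summed CPM), and NK4 was far above for the endothelium list (8.73 summed CPM). Neither Kcnj2, Kcna4 nor Kcnt1 had a library of this kind. The rule looks for a single far library, so it does not bear on several together, as the high NK1, NK2 and NK3 for Kcna4.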

How the results depend on the processing

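No paired analysis was possible because the columns carry no number that ties a library to an animal or a partner. The 3 calls among the 70 genes were kept by DESeq2, RLE size factors, filterByExpr, the CPM filter on TMM library sizes, an adjusted p under 0.05, and removal of length or GC trends. The quasi-likelihood test called 1 gene (Kcnj2). Removal of ribosomal RNA features or of the level filter left 2 (Kcnj2 and Kcna4). These removals also raised the number of features tested and adjusted over, from 13902 to 20743 and 43668. The ribosomal RNA share as a covariate left 2 as well (Kcnj2 and Kcnt1). Library size as the only scaling called 0 (0 at an unadjusted p under 0.05), with a median log2 fold change of -0.55 beside -0.49 over all features, and reversed Kcnj2 (-0.074), Kcna4 (-0.10), Kcnt1 (-0.15), Kcnab1 (-0.25) and Kcnq5 (-0.36), all of them still above the median of all features. It turned the sign of 36 of the 70 genes. Of the alternatives chosen after the data were seen, the cortical list level as a covariate called 8 and the D2 MSN list level called 0 (8 at an unadjusted p under 0.05), and leaving out NK4 and NK11 together called 3. Leaving out each library in turn gave 1 to 4 calls, 1 without NK1 or without NK11 and 4 without NK4 (Kcnh2 added), NK6 (Kcnn1) or NK8 (Kcnip1), and medians from -0.05 to 0.06. The cause of these changes was not tested. Depth limits the genes of few reads: 23 of the 70 had under 10 counts in at least 1 library, and DESeq2 gave no adjusted p for 30.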
